A study of Mus musculus with 10 samples.

Results

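The immediate early genes described here are 10 genes for transcription factors, chosen by name out of 18193 genes with a named probe set on the array. They are Fos, Fosb, Fosl1 and Fosl2, then Jun, Junb and Jund, and then Egr1, Egr2 and Egr3. All of their 16 probe sets were read on all 10 arrays. A pair of probe sets stood for 6 of the genes, and the other 4 had 1 each.

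Expression was measured in mouse leukemia stem cell lines in culture, with 1 array per sample. Both arrays of the SGC0946 group came from RH-RAS lines 1 and 3 kept for 4 days with 1 µM SGC0946, a small-molecule inhibitor of the histone H3 methyltransferase Dot1l. The MLL-AF9 group was 1 line carrying that fusion oncogene, and the NUP98-JARID1A group was 3 lines carrying the fusion of the nucleoporin gene NUP98 to JARID1A. The untreated RH-RAS group was 4 independently derived lines. Every RH-RAS culture, treated or not, carried the R882H form of the DNA methyltransferase DNMT3A and the G12D form of the small GTPase NRAS, which signals to the ERK kinases. All lines grew with serum and with stem cell factor, the ligand of the receptor Kit, and both are known to feed the same kinases. Whether the untreated cultures received a vehicle is not given in the sources used here. Independence is stated for the RH-RAS lines alone, so for the other lines the spread behind a p-value is that of these samples and may be technical.

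Immediate early genes are transcribed within minutes of a growth signal, from pre-bound factors and without new protein synthesis. Fos and Jun proteins pair through leucine zippers into AP-1, while Egr proteins are zinc finger factors that bind GC-rich sites. The AP-1 site was searched here as TGANTCA, a loose pattern with any base at N. In myeloid cells both families are known from the growth factor response and from maturation into monocytes and macrophages.

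Short stretches upstream of 3 members are printed because Fos and Jun moved most under the inhibitor among the Fos and Jun genes, while Junb did not pass the test. They are RefSeq promoter windows of assembly GRCm38.p6, from 250 bases before the annotated start to 50 bases from the start onward, read 5′ to 3′ on the gene's strand. Fos lies at chr12:85473640-85473939 on the plus strand, Jun at chr4:95052173-95052472 on the minus strand and Junb at chr8:84978699-84978998 on the minus strand. Capitals mark matches to the motifs named after the sequences.
Fos: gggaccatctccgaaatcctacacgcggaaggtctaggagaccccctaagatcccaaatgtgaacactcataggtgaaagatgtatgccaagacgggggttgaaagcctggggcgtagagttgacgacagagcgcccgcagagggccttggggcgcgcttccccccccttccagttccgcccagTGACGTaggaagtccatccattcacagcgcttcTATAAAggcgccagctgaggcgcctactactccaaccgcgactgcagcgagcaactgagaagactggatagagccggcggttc
Jun: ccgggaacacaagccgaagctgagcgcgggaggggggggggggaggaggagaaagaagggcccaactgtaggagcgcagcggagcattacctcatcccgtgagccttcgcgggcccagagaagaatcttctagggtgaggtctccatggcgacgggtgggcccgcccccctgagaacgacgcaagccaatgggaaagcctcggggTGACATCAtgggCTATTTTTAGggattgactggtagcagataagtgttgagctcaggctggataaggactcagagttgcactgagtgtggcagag
Junb: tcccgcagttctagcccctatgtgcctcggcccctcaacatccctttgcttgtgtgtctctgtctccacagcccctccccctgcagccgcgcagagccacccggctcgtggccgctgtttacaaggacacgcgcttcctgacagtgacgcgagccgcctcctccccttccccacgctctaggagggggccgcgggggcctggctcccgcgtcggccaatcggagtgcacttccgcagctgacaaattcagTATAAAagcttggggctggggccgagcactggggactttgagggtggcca
The Fos window held the core of a cAMP response element, TGACGT, at position -66 and a TATA box, TATAAA, at -33. The Jun window held the Jun-type AP-1 site TGACATCA at -45 and a MEF2-type site, the second run of capitals, at -33. The Junb window held TATAAA from position 1, the annotated start itself, and no other motif searched. Both strands were searched for 7 motifs, which could overlap. Over all 32851 windows of this length, the share with TGACGT was 7.51%, with the loose AP-1 pattern TGANTCA 7.81% and with TGACATCA 3.62%. The share with the same MEF2-type site was 0.110% and with the Egr site GCGNGGGCG 5.55%. A TATA box was in 13.6% and the CArG box of serum response factor in 1.63%. Of the other members, Fosb and Fosl2 held GCGGGGGCG, at -50 and -79, windows of Egr2 held a CArG box and ACGTCA, and Jund held none of the 7 motifs. No window was found in the table for Fosl1, Egr1 or Egr3. A match is a match of letters, and no binding was measured here.

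Values are log2 intensities as the authors deposited them, so a difference of 1 is a change of 2-fold. Levels of different probe sets are not on a common scale and are not ranked against each other. Array medians lay between 5.72 and 5.82. The brighter probe set stood for each gene, and 11992 genes were bright enough to test, with a value over the median of 2 arrays or more. Of the 10 members 8 were tested. Fosb and Egr2 lay below the median on every array and were not, and Fosl1 passed only through NUP98-JARID1A arrays.

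The untreated RH-RAS lines were not alike. Among lines 1, 2 and 3 the correlation across genes was 0.995 to 0.997, with 3 to 19 genes apart by more than 1 on the log2 scale. For line 4 against those lines it was 0.986 to 0.988, and 225 to 255 genes were that far apart. The labelled cell type was checked on 6 stem and progenitor genes, whose mean was 9.10 and 9.17 on the SGC0946 arrays, 10.4 in MLL-AF9, 10.3 to 10.9 in NUP98-JARID1A and 10.3 to 10.5 in untreated RH-RAS lines. The mean of 10 monocyte and macrophage genes was 10.4 and 10.5 on the SGC0946 arrays, 7.98 in MLL-AF9, 8.83 to 9.69 in NUP98-JARID1A, 6.84 to 6.89 in untreated lines 1 to 3 and 8.18 in untreated line 4. The mean of the neutrophil genes was 11.6 in MLL-AF9 and 10.2 to 13.2 in NUP98-JARID1A, against 5.69 to 5.89 in untreated RH-RAS lines, and it was 5.74 and 5.80 with SGC0946. In RH-RAS cultures this mean joins a high Mpo to low values of the rest. In such bulk samples fewer cells of a type and less RNA per cell cannot be told apart.

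**Figure D1:**
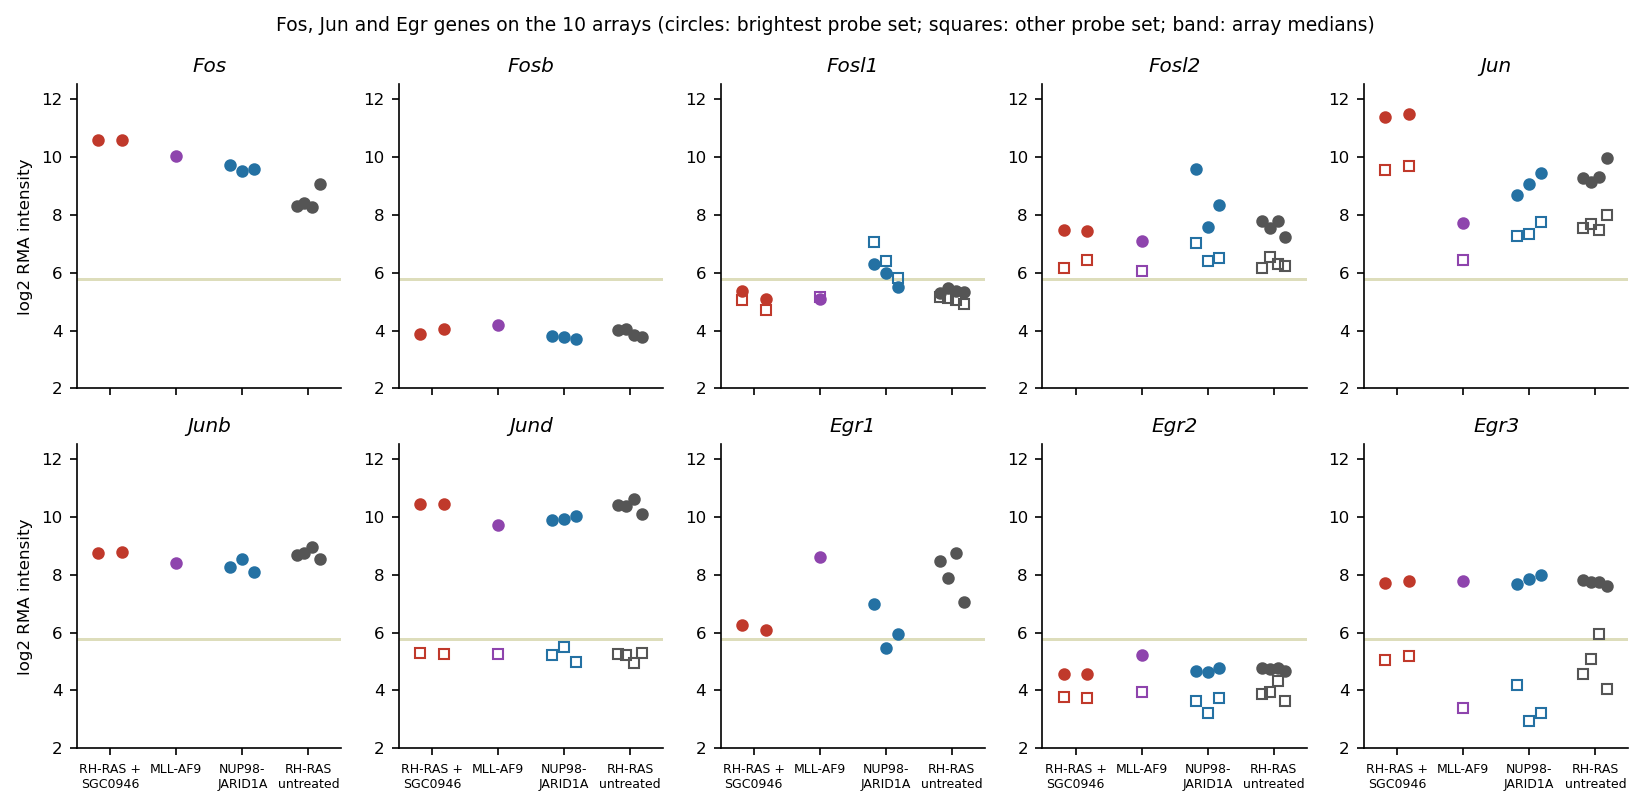
Log2 RMA intensity of each member on the 10 arrays, with 1 point per array, circles for the brighter probe set, squares for the other one and a band over the range of the array medians. The SGC0946 arrays stand above all untreated RH-RAS arrays for Fos and Jun and below them for Egr1, and Fosb and Egr2 lie under the band throughout.

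In RH-RAS lines 1 and 3, SGC0946 changed 3 of the 8 members tested. Fos and Jun rose about 4-fold to 5-fold and Egr1 fell by more than 5-fold, while Fosl1, Fosl2, Junb, Jund and Egr3 did not pass the test. Of all genes tested, 12.0% passed, 6.84% higher and 5.13% lower. A rise of at least 4-fold was called for 1.09% of genes and a fall of that size for 0.584%. Values on both SGC0946 arrays lay outside the range of all 4 untreated lines for 48.0% of genes, and this held for Fos, Jun and Egr1.

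Fos encodes the founding Fos protein, which binds DNA only as a partner of a Jun protein. Its probe set read 10.58 and 10.59 in treated lines 1 and 3, against 8.30 and 8.28 in the same lines untreated. Untreated line 2 read 8.40 and untreated line 4 read 9.05. Both treated arrays lay above every other array of the series. The change was 2.30 ± 0.19 (SE, 2 lines) on the log2 scale, or 4.92-fold, with a 95% interval of 1.84 to 2.75 and a limma adjusted p of 0.00293. It placed Fos 103rd from the top of the 11992 genes.

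The other Fos family genes encode partners of Jun that differ in how strongly they activate. Fosb read 3.87 and 4.07 in treated lines 1 and 3, against 4.02 and 3.84 in the same lines untreated, all below the array medians. Fosl1, which encodes Fra-1, changed by -0.11 ± 0.24, and Fosl2, which encodes Fra-2, by -0.33 ± 0.55. Their 95% intervals ran from -0.66 to 0.44 and from -1.60 to 0.95. The wide interval of Fosl2 goes with its spread among NUP98-JARID1A lines, which share the fit, and its changes in lines 1 and 3 were -0.31 and -0.35.

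Jun encodes the c-Jun protein, the partner with which Fos most often pairs. Its brighter probe set read 11.37 and 11.50 in treated lines 1 and 3, against 9.27 and 9.31 in the same lines untreated. Untreated line 2 read 9.12 and untreated line 4 read 9.95. Here too both treated arrays were the highest of the series. The change was 2.15 ± 0.30 (SE, 2 lines), or 4.44-fold, with a 95% interval of 1.44 to 2.86 and a limma adjusted p of 0.00738. The other probe set moved alike, by 2.10 ± 0.18 with an adjusted p of 0.0026 in a limma fit of every probe set, where 9.70% of 21679 passed. Jun missed the threshold when either array of line 1 or of line 3 was left out, with adjusted p of 0.0606 to 0.0769, while its change stayed between 2.09 and 2.21.

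Junb and Jund encode the other Jun proteins, and Junb is known as a weaker activator than c-Jun. Junb read 8.74 and 8.78 in treated lines 1 and 3, against 8.68 and 8.95 in the same lines untreated. Jund read 10.43 and 10.44 in the treated lines, against 10.40 and 10.62 untreated. In both genes the treated values lay inside the untreated range. The changes were -0.06 ± 0.17 and -0.08 ± 0.13, and their 95% intervals, -0.46 to 0.34 for Junb and -0.37 to 0.22 for Jund, leave out a change of 1.

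Egr1, a zinc finger factor of the growth factor response, moved the other way. It read 6.26 and 6.07 in treated lines 1 and 3, against 8.48 and 8.76 in the same lines untreated. Untreated line 2 read 7.90 and untreated line 4 read 7.04, so the untreated lines themselves spread over more than 1 on the log2 scale. The change was -2.45 ± 0.48 (SE, 2 lines), which is 5.48-fold lower, with a 95% interval of -3.57 to -1.34 and a limma adjusted p of 0.0197. It placed Egr1 45th from the bottom of the 11992 genes. The NUP98-JARID1A lines, whose Egr1 values ran from 5.47 to 6.99, share this fit. In a fit of the 6 RH-RAS arrays alone the change was the same and its SE was 0.27. With the line as a block, which pairs each treated culture with its own untreated line, the adjusted p was 0.0560, and when 1 array of lines 1 and 3 was left out it was 0.0992 to 0.134.

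Egr2 and Egr3 encode related factors. Egr2 read 4.56 and 4.57 in treated lines 1 and 3, against 4.78 and 4.77 in the same lines untreated, all under the array medians. The brighter Egr3 probe set changed by -0.04 ± 0.12, with a 95% interval of -0.31 to 0.24. Its other probe set, above the array median on 1 array only, read 5.04 and 5.20 with SGC0946, against 4.58 and 5.95 in the same lines untreated, with changes of opposite sign.

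**Figure D2:**
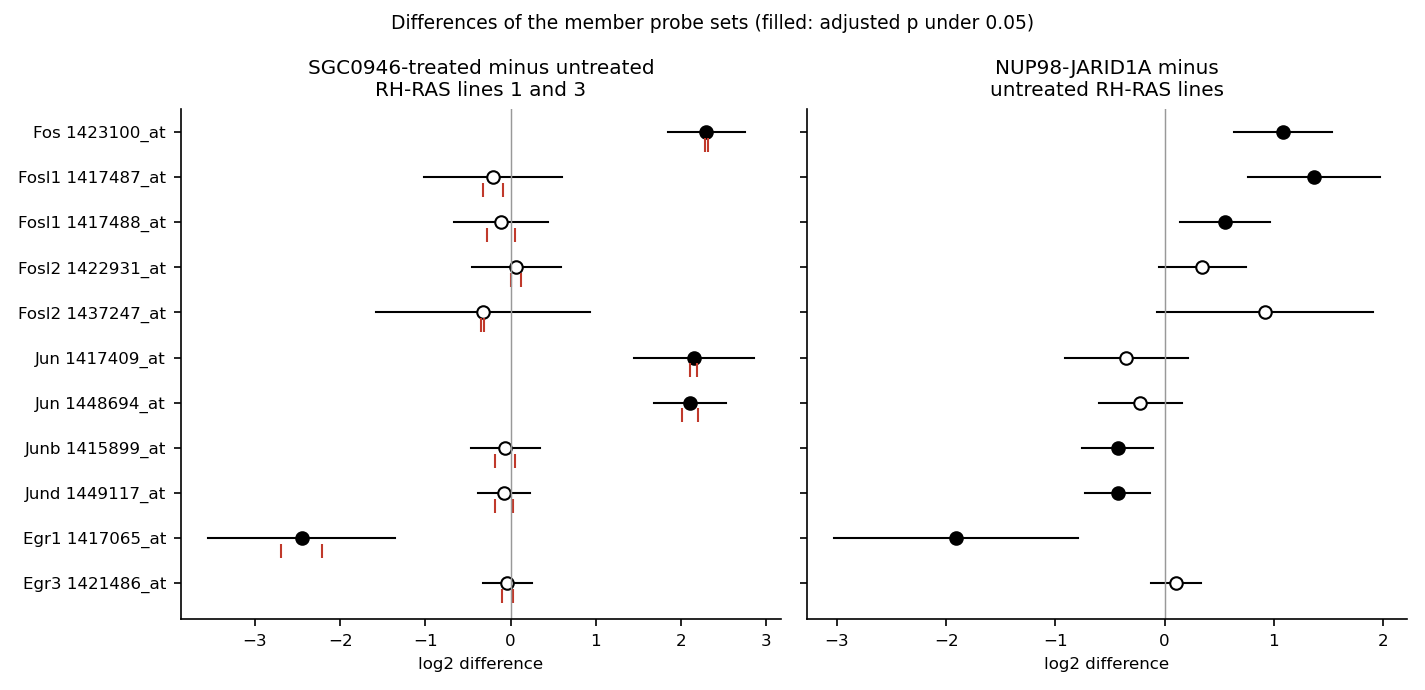
Log2 differences of the 11 member probe sets that passed the filter, in a fit of every probe set, for SGC0946 in RH-RAS lines 1 and 3 (left) and for NUP98-JARID1A against untreated RH-RAS lines (right). Points are limma estimates, bars 95% intervals, filled points passed the adjusted p threshold of 0.05 and red ticks are the changes within lines 1 and 3. Fos, both Jun probe sets and Egr1 are filled at left, and the ticks of each lie on 1 side of zero.

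Untreated line 4 lay between lines 1 to 3 and the SGC0946 arrays for Fos, Jun and Egr1, which is 3 of the 8 members tested. This order held for 25.1% of all genes and for 76.2% of the genes that SGC0946 changed. Line 4 minus the mean of lines 1 to 3 was 0.73 for Fos, 0.72 for Jun and -1.34 for Egr1. Set against untreated line 4 alone, a choice made after the data were seen, the treated lines differed by 1.53 for Fos, 1.49 for Jun and -0.87 for Egr1, with limma adjusted p of 0.00215, 0.0384 and 0.573.

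The monocyte and macrophage genes moved in the same samples. Of these, 9 of 10 rose with SGC0946, with a median of 3.86, where 6.84% of all genes rose and 5.13% fell. Among the 9, Mrc1 met the filter only with the SGC0946 arrays, so high values there were a condition of its being tested. The mean of the 10 genes was 10.4 and 10.5 in the treated lines. In untreated line 4 it was 8.18, and in untreated lines 1 to 3 it was 6.84 to 6.89. Of 6 stem and progenitor genes 4 fell. Of 8 neutrophil genes, Mpo, the enzyme of primary granules, read 11.4 to 12.4 in the 6 RH-RAS cultures and the other 7 read 3.41 to 5.74. Of 5 T and NK cell genes tested 2 fell, Gzma and Cd3g. Both passed the filter only through untreated RH-RAS arrays, so high values there were a condition of being tested. The mean of the 6 T and NK cell genes on the array, Ncr1 included, was 5.51 and 5.58 in the treated lines. It was 5.98 in untreated line 4 and 7.16 to 7.27 in untreated lines 1 to 3. This mean joins large falls of Gzma and Cd3g to smaller differences with SGC0946 in Cd3d, Cd3e and Klrd1. Those were -0.17, 0.07 and -0.28, and none passed the test. Means of B cell, erythroid and stromal genes lay at 5.50 to 6.10, 4.44 to 4.78 and 4.86 to 5.25 on the 10 arrays. What part these shifts have in the values of Fos, Jun and Egr1 was not tested.

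**Figure D3:**
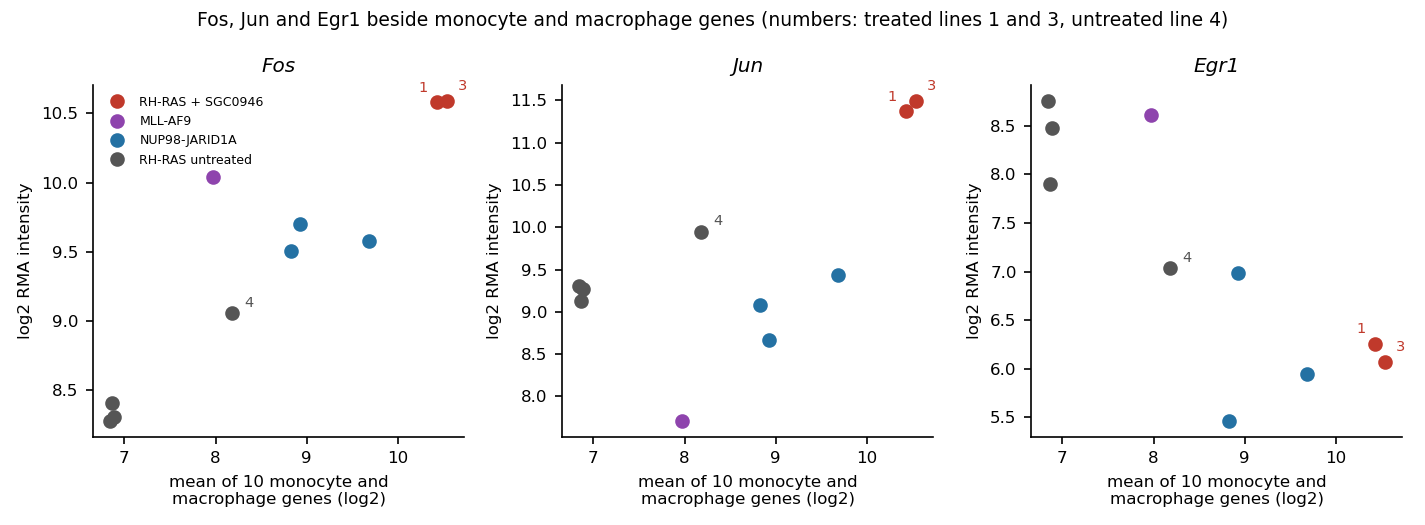
Log2 RMA intensity of Fos, Jun and Egr1 (vertical) against the mean of 10 monocyte and macrophage genes (horizontal), 1 point per array. The SGC0946 arrays sit at the right end and untreated line 4 between them and untreated lines 1 to 3, while MLL-AF9 lies apart in the Jun panel at 7.71.

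NUP98-JARID1A lines differed from untreated RH-RAS lines in 5 of the 8 members tested. Fos and Fosl1 were higher, and Junb, Jund and Egr1 were lower. This comparison called 51.0% of all genes, 32.5% higher and 18.5% lower, so a count of 5 of 8 is close to the background. Because Fosl1 passed the filter through NUP98-JARID1A arrays, it had to be high there, and 4 of the other 7 members were called. The groups did not overlap for Fos, Jund and Egr1 among those 7, where 54.8% of all genes did not overlap, 34.8% higher and 20.0% lower.

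Fos read 9.70, 9.51 and 9.58 in NUP98-JARID1A lines 1 to 3, against 8.30, 8.40, 8.28 and 9.05 in untreated RH-RAS lines 1 to 4. Every NUP98-JARID1A value was above every untreated RH-RAS value. The difference was 1.09 ± 0.19 (SE, n = 3 and 4), or 2.12-fold, with a limma adjusted p of 0.00284. Egr1 read 6.99, 5.47 and 5.95 in NUP98-JARID1A lines, against 8.48, 7.90, 8.76 and 7.04 in untreated RH-RAS lines. NUP98-JARID1A line 1 and untreated RH-RAS line 4 nearly met. The difference was -1.91 ± 0.49, which is 3.76-fold lower, with a limma adjusted p of 0.0136. Both calls held whichever of the 7 arrays was left out.

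Fosl1 read 6.30, 5.98 and 5.50 in NUP98-JARID1A lines, against 5.31, 5.47, 5.38 and 5.35 in untreated RH-RAS lines. NUP98-JARID1A lines 1 and 2 lay above the array medians and line 3 did not. The difference was 0.55 ± 0.18 with a limma adjusted p of 0.0323, and the call was lost in 6 of 7 fits that left out 1 array. The other Fosl1 probe set read 7.07, 6.39 and 5.82 in NUP98-JARID1A lines, against 4.93 to 5.15 in untreated RH-RAS lines. It differed by 1.37 ± 0.26 with a limma adjusted p of 0.0034 in the fit of every probe set, which called 52.1%. This probe set too passed the filter only through NUP98-JARID1A arrays, so it had to be high there and adds no separate support.

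Fosl2 varied most among NUP98-JARID1A lines of the members tested, with 9.60, 7.56 and 8.35 in lines 1 to 3, against 7.77, 7.56, 7.79 and 7.23 in untreated RH-RAS lines. Line 1 was high and line 2 lay inside the untreated range. The difference of 0.92 ± 0.43 had a limma adjusted p of 0.114, and 0.0164 without NUP98-JARID1A line 2.

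In the Jun family, Junb and Jund were lower in NUP98-JARID1A lines and Jun did not pass the test. Jun averaged 9.06 ± 0.38 there and 9.41 ± 0.37 in untreated RH-RAS lines (SD, n = 3 and 4), a difference of -0.35 ± 0.24 with a limma adjusted p of 0.265. Jund averaged 9.94 ± 0.09 in NUP98-JARID1A lines and 10.37 ± 0.21 in untreated RH-RAS lines (SD, n = 3 and 4), and Junb 8.30 ± 0.23 and 8.73 ± 0.17. Both differences were -0.43, with limma adjusted p of 0.0234 for Jund and 0.0348 for Junb. Leaving out 1 array ended the call of Jund in 4 of 7 fits and that of Junb in 5 of 7, and with the mean of both its probe sets Jund had an adjusted p of 0.0808.

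Egr3 differed by 0.11 ± 0.09 on its brighter probe set, with a limma adjusted p of 0.378. Its other probe set read 4.19, 2.96 and 3.22 in NUP98-JARID1A lines, against 4.58, 5.10, 5.95 and 4.05 in untreated RH-RAS lines, so the probe sets of this gene disagreed. Fosb lay at 3.72 to 3.82 in NUP98-JARID1A lines, against 3.77 to 4.04 in untreated RH-RAS lines, and Egr2 at 4.65 to 4.79, against 4.66 to 4.78. All 8 neutrophil genes were higher in NUP98-JARID1A lines, with a median difference of 6.27, where 32.5% of all genes were higher. The 7 other than Mpo read 3.41 to 5.74 on RH-RAS arrays. They passed the filter through NUP98-JARID1A and MLL-AF9 arrays, so high values there were a condition of being tested. Among 10 monocyte and macrophage genes, 6 were higher while Fcgr1 was lower, with a difference of -1.16. Of 5 T and NK cell genes 2 were lower, with differences of -5.26 for Gzma and -3.67 for Cd3g. Both passed the filter only through untreated RH-RAS arrays, so they had to be high there. The mean of the 6 T and NK cell genes on the array was 5.21 to 5.35 in NUP98-JARID1A lines. In untreated RH-RAS lines it was 5.98 to 7.27. Of 6 stem and progenitor genes Kit and Gata2 were higher, by 1.68 and 1.42, and Flt3 was lower, with a difference of -2.07. Of 3 B cell genes tested, Cd79b was lower and Vpreb1 higher, with differences of -1.97 and 1.56. Vpreb1 passed the filter only through NUP98-JARID1A arrays, so it had to be high there. The part of these markers in the differences of the members was not tested.

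The single MLL-AF9 array was counted where it differed from the mean of the untreated RH-RAS lines by at least 1 and lay outside their range, with no test. Fos and Jun did so among the 8 members, in opposite directions, where 13.0% of all genes did, 7.21% higher and 5.78% lower. Fos read 10.04 in MLL-AF9, against 8.28 to 9.05 in untreated RH-RAS lines, 1.53 above their mean. Jun read 7.71 in MLL-AF9, against 9.12 to 9.95 in untreated RH-RAS lines, a difference of -1.70 from their mean, and the difference of its other probe set was -1.24. MLL-AF9 was the lowest array of the series for Jun. Egr1 read 8.61 in MLL-AF9, inside the untreated range of 7.04 to 8.76. The differences were -0.66 for Jund and -0.49 for Fosl2. Egr2 was 0.47 higher in MLL-AF9, at 5.21, which is still below the array medians.

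Across the series, then, Fos was highest with SGC0946, next in MLL-AF9, then in NUP98-JARID1A lines and lowest in untreated RH-RAS lines, and these 4 sets of arrays did not overlap. Jun was highest with SGC0946 and lowest in MLL-AF9, and its NUP98-JARID1A and untreated RH-RAS values overlapped. Egr1 was highest in untreated RH-RAS lines and MLL-AF9, and its SGC0946 values lay inside the NUP98-JARID1A range of 5.47 to 6.99. The comparisons share the untreated RH-RAS arrays.

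The tested genes whose values over the 10 arrays followed a member most closely were named by Pearson's r, as a description, since the arrays share lines and groups. For Fos they were Cmpk1 at 0.987 and Sgk3 and Slc2a8 at 0.968. For Jun they were P2ry13 at 0.983, Tnfaip1 at 0.978 and Alcam at 0.975. For Egr1 they were Tdrkh at 0.961, Piga at 0.958 and Zfp131 at 0.947. Jund was followed by Mki67 at 0.976, Mfhas1 and Chn2 at 0.972, Junb by 5830408C22Rik at 0.942, Fosl2 by Abhd4 at 0.960, Fosl1 by Ilkap at 0.952 and Egr3 by Gm20559 at 0.910.

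Genes that work with these factors were read from 4 lists with 49 genes, of which 42 were tested. SGC0946 changed 7 of the 42, or 16.7%, 5 higher and 2 lower, beside 12.0% of all genes. Among 11 genes for dimer partners of AP-1, Atf3, a stress-induced partner of Jun, rose by 1.75 ± 0.40 with a limma adjusted p of 0.0323 and Batf rose by 0.55 ± 0.12 with 0.0303. Maff, a small Maf protein, changed by -1.36 ± 0.26 with 0.0190. The other 8 did not pass, and the list's median was 0.21 beside 0.02 for all genes. Maf, a factor known from macrophages, differed by 3.93 ± 1.08 with a limma adjusted p of 0.0566, and was named after its values were seen.

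Among 14 other immediate early genes, the mRNA decay factor Zfp36 rose by 1.08 ± 0.22 (limma adjusted p 0.0215), Ier5 by 0.67 ± 0.13 (0.0196) and the survival gene Mcl1 by 0.54 ± 0.12 (0.0263). Ppp1r15a, a phosphatase subunit of the stress response, fell by 0.43 ± 0.11 (0.0428), and 10 did not pass, with a median of 0.07. Rgs1, which encodes a regulator of G protein signalling, differed by -2.22 ± 0.66 with an adjusted p of 0.0735. Of 9 serum response and Egr cofactor genes limma called 0, and 3 had an unadjusted p under 0.05. The largest differences there were -1.05 ± 0.39 for the Egr corepressor Nab2 and -0.57 ± 0.15 for the ternary complex factor Elk4, with adjusted p of 0.135 and 0.0517. Of 8 ERK, JNK and p38 pathway kinases limma called 0, and 0 had an unadjusted p under 0.05. With the line as a block, Maff kept its call with an adjusted p of 0.0115, Elk4 passed with 0.049996, and the other 6 called genes had adjusted p of 0.0506 to 0.102. When any 1 array of lines 1 and 3 was left out, no list gene was called. Ppp1r15a also missed the threshold without NUP98-JARID1A line 3.

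In NUP98-JARID1A lines, 17 of the 42 list genes were called, or 40.5%, 8 higher and 9 lower, beside 51.0% of all genes. The serum response factor gene Srf was higher by 1.06 ± 0.17, and its coactivators Mrtfa and Mrtfb by 1.16 ± 0.13 and 1.15 ± 0.12, with limma adjusted p of 0.0015, 0.0004 and 0.0003. Elk3, a ternary complex factor known to repress, was lower, with a difference of -1.19 ± 0.16 and an adjusted p of 0.0008. These 4 of 9 genes were called whichever array was left out. Among the AP-1 partners Batf and Mafg were higher and Atf2 and Batf3 lower, 4 of 11. Among the other immediate early genes Gadd45b was higher by 0.83 ± 0.16, and Ier5, Rgs1, Nr4a2 and Zfp36 were lower, with differences of -2.07, -2.02, -1.08 and -0.48. The calls of Mafg, Batf3, Rgs1 and Zfp36 did not hold in every fit that left out 1 array. Of 8 kinases, Map2k4 and Mapk14 were higher and Mapk8 and Rps6ka5 lower, with -1.69 ± 0.16 for Rps6ka5, a kinase of histone H3. The list medians lay between -0.19 and -0.03, beside 0.10 for all genes.

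**Figure D4:**
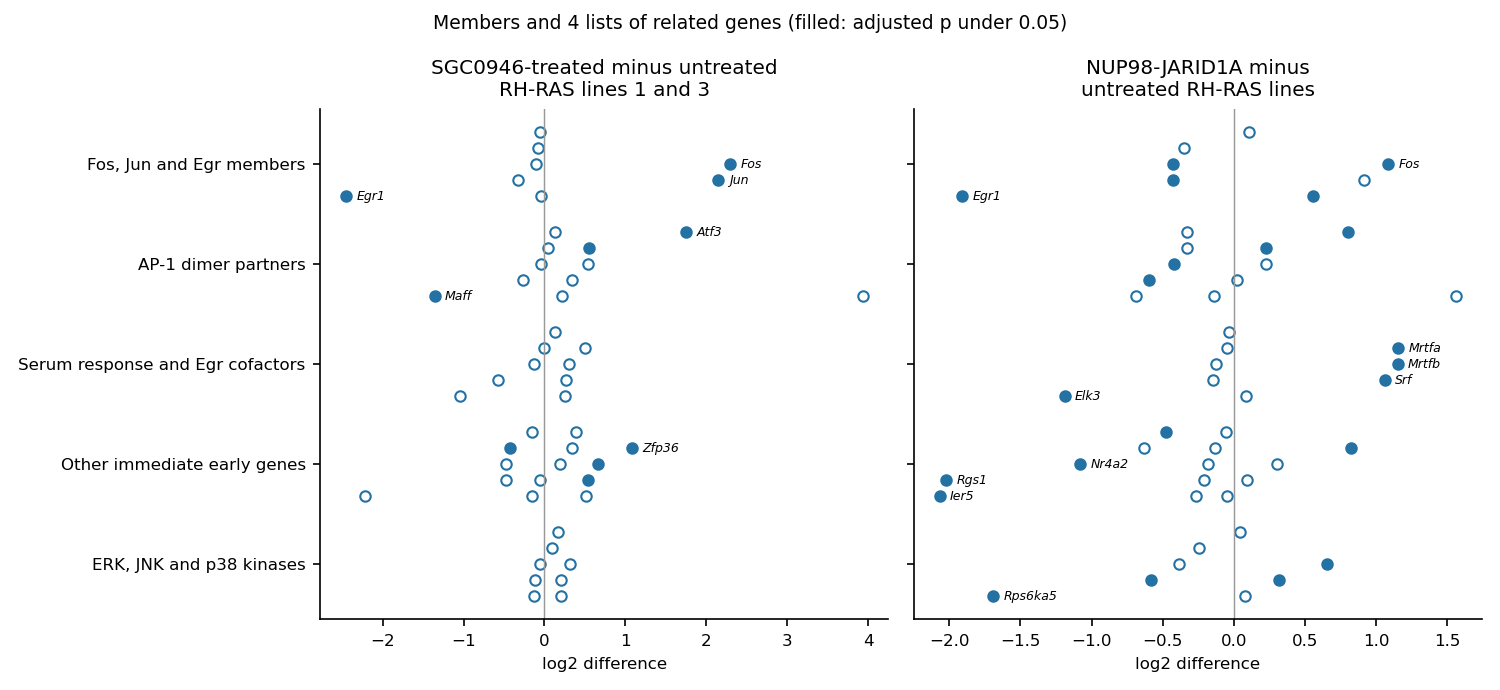
Log2 differences of the 8 tested members and of the tested genes of 4 related lists, 1 point per gene, for SGC0946 in RH-RAS lines 1 and 3 (left) and for NUP98-JARID1A against untreated RH-RAS lines (right), with filled points past an adjusted p of 0.05. Fos, Jun and Egr1 stand far from zero at left, and no kinase or serum response cofactor is filled there.

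On the MLL-AF9 array 6 of the 42 list genes passed the same rule of size, or 14.3%, which is near the 13.0% of all genes. Maf and Gadd45b were higher by 1.54 and 1.14 than the untreated RH-RAS mean. Atf3, Elk3, Ier5 and Rgs1 differed by -1.76, -1.89, -2.10 and -3.42.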

How the data were processed

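Total RNA of 10 cultures was labelled and hybridised to Affymetrix mouse arrays, 1 per sample. The authors deposited log2 intensities per probe set made with RMA, per the submitters' processing notes. RMA compresses low intensities and gives no detection calls. No source used here gives its version or the scan dates. No further normalisation was applied.

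Of 45101 probe sets, 34958 had 1 gene symbol in the array annotation, 932 had several and 9211 were not listed. The probe set of highest mean stood for a gene, and the gene was tested if this exceeded the array median on 2 or more arrays. Tests were run with lmFit and eBayes of limma 3.58.1 (R 4.3.3), with Benjamini-Hochberg adjustment over 11992 genes and a threshold of 0.05. The SGC0946 fit was also run on simulated arrays, and the NUP98-JARID1A fit was not. The simulated arrays all took their spread from untreated RH-RAS lines 1 to 3, so they do not cover the wider spread of NUP98-JARID1A lines. The SGC0946 effect came from all 10 arrays with 5 coefficients, as treated minus untreated lines 1 and 3. Its arms are the same cell lines, but this fit has no line term, so its errors and p-values do not use the pairing. The fit with the line as a block does. Treated line 1 minus treated line 3 correlated with the same difference untreated at 0.29 over the 11992 genes. NUP98-JARID1A was compared over the 8 arrays without inhibitor.

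All members were named, with the genes of each list called in either fit, or else the 2 largest changes, and the 3 nearest genes by r. Maf, Nab2 and Elk4 fall outside this rule and were named after their values were seen. Members and lists were chosen with earlier results of these data known. Alternatives were a line block, other probe set rules and filters, fewer arrays, median subtraction and leaving out each array. Some list genes are not reported here.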

Additional observations from a re-analysis of the deposited data

Results flagged for a closer look

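In untreated RH-RAS lines, 16 sets of values, 1 per member probe set, were examined for an array far from the others, and chance marks about 1 set in 20. Fos in line 4 stood apart at 9.05. The dimmer Jund probe set, below the array median throughout, stood apart in line 3 at 4.96.

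SGC0946 moved 6 probe sets up in 1 of lines 1 and 3 and down in the other, and the difference between lines was not tested. The change in line 1 minus that in line 3 was -0.37 for Fosb, 0.32 for the brighter Fosl1 probe set, 0.24 for Junb, 0.21 for the brighter Jund probe set and -0.14 for the brighter Egr3 probe set. It was 1.21 for the dimmer Egr3 probe set. Fosb and the dimmer Egr3 probe set did not pass the filter and were not tested, and the others were not called for SGC0946.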

How the results depend on the processing

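SGC0946 changed 1435 genes, 847 with the line as a replicate block, 2746 in a fit of the 6 RH-RAS arrays alone and 318 against untreated line 4 alone. Leaving out 1 array gave 28 genes, without treated line 3, to 1856, and 147, 124 and 129 without untreated line 1, untreated line 3 or treated line 1. The members called were 1 to 3 in those fits, Fos in each of them. NUP98-JARID1A differed in 6112 genes, in 11303 probe sets when each was tested, and in 5121 to 5898 genes without 1 array. Its members called were 5, 2 to 4 without 1 array, and 3 (Fos, Jund and Egr1) with the line number as a replicate block. There the numbers share only a number, since their correlations were -0.05, -0.02 and 0.07. Egr3 turned to -0.68 in NUP98-JARID1A lines with the mean of its probe sets, with a limma adjusted p of 0.0436, as its probe sets disagree. The cause of the other shifts was not tested. The MLL-AF9 count stayed at 2 under the alternatives run. With 2 treated arrays and 1 MLL-AF9 array, the number of arrays limits the precision, and low signals such as Fosb and Egr2 are compressed.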
